A study of Arabidopsis thaliana with 38 samples.

Results

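The 3 genes described here belong to clade A of the type 2C protein phosphatases (PP2Cs) of *Arabidopsis thaliana* and were followed across HSP90-reduced lines and their controls. The genes are *HAI1* (AT5G59220, probe set 247723_at), *HAI2* (AT1G07430, probe set 261077_at) and *ABI1* (AT4G26080, probe set 253994_at). These 3 probe sets were chosen by their differences between each line and its controls, among the 22746 non-control probe sets of the array. All values from those comparisons are therefore given as a description, without a test. All 3 passed the filter on low values that left 16744 probe sets for testing. The clade A list holds 9 genes, and the other 6 are not analysed here, since no probe set could be named for them.

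In all, 35 biological samples of 13 lines in the Col-0 accession had been hybridized to 38 ATH-1 arrays. Samples were pools of aerial tissue from seedlings aged 14 days, grown on medium in long days, and nothing in the sources shows how far pools of one line were raised apart, so spreads and p-values cover the difference between these pools. The 5 HSP90-RNAi lines carried a hairpin construct driven by the 35S promoter, with construct A (RNAi-A1, RNAi-A2, RNAi-A3) and construct B (RNAi-B1) taken from *HSP90.1* and construct C (RNAi-C1) from *HSP90.2*. Each of these lines goes back to 1 transformant, so line and insertion site cannot be told apart. Control-1, Control-2 and Control-3 carried the same vector without HSP90 sequence. The HSP90-TDNA lines were each homozygous for a T-DNA insertion in 1 gene, *HSP90.1*, *HSP90.2* or *HSP90.3*, and *hsp90.2-3* carried a point mutation in the ATP-binding domain of HSP90.2. Control-2 served as the control of RNAi-A1 and of RNAi-A3, Control-1 and Control-3 together as that of the other 3 RNAi lines, and Col-0 as that of the T-DNA lines. The experiment of *hsp90.2-3* is not given in the sources used here, so it was also set against Col-0, and an effect of the batch cannot be told apart from the mutation. RNAi-A1, RNAi-A2, RNAi-A3 and Control-2 had 2 samples each and the other 9 lines had 3.

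Abscisic acid (ABA) is the hormone that plants make more of when water is short, and it closes stomata and holds seeds dormant. Clade A PP2Cs keep this pathway off by removing phosphate from SnRK2 kinases, which act on transcription factors and ion channels. When ABA is bound, PYR/PYL receptors block the phosphatases and the kinases become active. Many clade A genes are themselves switched on by ABA, which forms a negative feedback loop. *ABI1* is a classic regulator of this kind, first found through an ABA-insensitive mutant, while *HAI1* and *HAI2* (highly ABA-induced PP2C genes) are low in unstressed plants.

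Values are signals of the deposited table on a linear scale, and differences are on the log2(signal + 16) scale with the standard error (SE) of a limma fit over all samples. Array medians ranged from 171 to 221 in 37 arrays, each of which correlated with the median profile at 0.975 to 0.987. The remaining array, 1 of 2 of RNAi-A3 sample 2, had a median of 339 and a correlation of 0.499 and was left out. In that array *HAI1* had a signal of 1429, *HAI2* of 77.8 and *ABI1* of 1784, against 1466, 518 and 2356 in the other array of the same sample. In the 2 other samples with a second array, the arrays differed by at most 0.08 on the log2 scale, except for *HAI2* in RNAi-A1, where they differed by 0.41. The root hair gene *EXPA7* stayed between 5.98 and 139 in all samples, while genes of leaf photosynthesis and of HSP90 itself were not analysed here.

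*HAI1* was higher than in the controls in all 5 HSP90-RNAi lines and in *hsp90.2-3*, by 1.74-fold to 3.62-fold, and every sample of these lines lay above every sample of its controls. In the HSP90-TDNA lines its difference from Col-0 was much smaller. The tissue was whole shoots, so that a change in the share of cells with a transcript and a change in transcript per cell cannot be told apart here or in the values that follow.

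In the Control-2 set, *HAI1* signals were 398 and 583 in Control-2, 909 and 1066 in RNAi-A1, and 908 and 1466 in RNAi-A3. The RNAi-A1 mean was 2.01-fold the control mean (log2 difference 1.01 ± 0.29, SE) and the RNAi-A3 mean 2.35-fold (1.23 ± 0.29, SE). Both samples of each RNAi line were thus above both Control-2 samples, which was also the case for 17.9% of all tested probe sets in RNAi-A1 and for 15.4% in RNAi-A3. In the set with Control-1 and Control-3, *HAI1* signals were 288 to 319 in the 3 Control-1 samples and 283, 139 and 307 in the Control-3 samples. They were 983 and 1022 in RNAi-A2, which is 3.62-fold the controls (1.86 ± 0.23, SE). In RNAi-B1 the signals were 844, 883 and 910.1, or 3.18-fold the controls (1.67 ± 0.20, SE). RNAi-C1, with 494, 431 and 496, lay between the controls and the other RNAi lines at 1.74-fold (0.80 ± 0.20, SE). None of these 8 RNAi samples overlapped with the 6 control samples, and the share of probe sets with all line samples above all control samples was 11.1% for RNAi-A2, 9.69% for RNAi-C1 and 6.43% for RNAi-B1.

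Col-0 had *HAI1* signals of 340.2, 249 and 356. In *hsp90.2-3* they were 1445, 1149 and 786, which is 3.39-fold the Col-0 level (1.76 ± 0.23, SE), with no overlap between the lines. For *hsp90.2-3*, 11.7% of probe sets had all samples above Col-0. HSP90.3-TDNA had signals of 448, 489 and 419, which is 1.43-fold (0.51 ± 0.23, SE), and these also lay above the 3 Col-0 samples (background 6.01%). HSP90.2-TDNA had signals of 437, 362 and 341 (0.27 ± 0.23, SE) and HSP90.1-TDNA of 243, 250.1 and 383 (-0.12 ± 0.23, SE). Both ranges overlapped with that of Col-0, where the background was 3.97% for HSP90.2-TDNA and 4.35% for HSP90.1-TDNA. *HAI1* was thus the one gene of the 3 whose samples in a T-DNA line were all above Col-0.

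**Figure D1:**
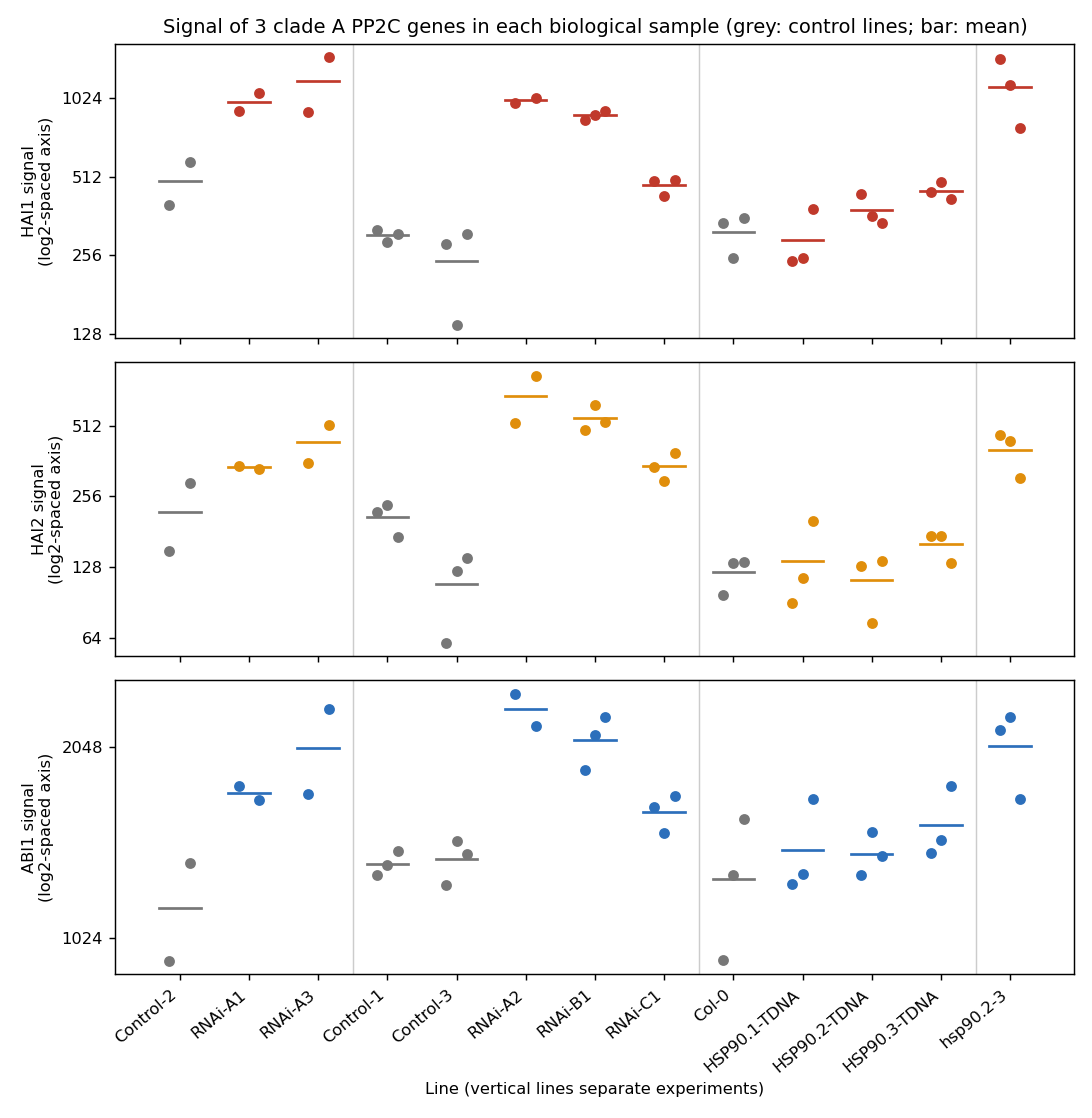
Signal of *HAI1*, *HAI2* and *ABI1* (y axis, log2-spaced) in each of the 35 biological samples, by line (x axis). Points are samples, bars are line means, grey marks control lines, and vertical lines separate the experiments and *hsp90.2-3*, whose experiment is not given. *HAI1* in Control-3 sample 2 (139) lies apart from the other 5 samples of Control-1 and Control-3 (283 to 319).

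*HAI2* showed the widest range of the 3 genes on the log2 scale, with line mean signals from 108 in Control-3 to 683 in RNAi-A2. In Control-2 its signals were 149 and 291, a difference that is wide beside that between RNAi-A1 (345 and 336) and these controls. The RNAi-A1 mean was 1.58-fold the control mean (0.66 ± 0.34, SE). RNAi-A3 had 356 and 518, or 1.98-fold (0.98 ± 0.34, SE). Both lines lay above both control samples, but without Control-2 sample 1 the difference of RNAi-A1 was 0.21 and without Control-2 sample 2 it was 1.11. For *HAI2* and *ABI1*, the shares of all tested probe sets with all line samples above all control samples are those given for *HAI1*.

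In the other RNAi set, the *HAI2* signals of RNAi-A2 were 527 and 838, which is 4.18-fold the control mean (2.07 ± 0.28, SE). RNAi-B1 had 491, 627 and 530.4, which is 3.46-fold (1.79 ± 0.24, SE), and RNAi-C1 had 342, 298 and 391, which is 2.197-fold (1.14 ± 0.24, SE). The controls themselves were spread more widely on the log2 scale for *HAI2* than for the other 2 genes, with signals of 220.2, 235 and 173 in Control-1 and 60.8, 123 and 139.6 in Control-3. All 8 RNAi samples were above all 6 control samples whichever control line was used. Against Control-1 alone the difference of RNAi-C1 was 0.68, and against Control-3 alone it was 1.59.

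In Col-0 the *HAI2* signals were 97.7, 133 and 134, and in *hsp90.2-3* they were 466, 442 and 306, which is 3.04-fold (1.60 ± 0.28, SE). These 2 lines did not overlap. HSP90.3-TDNA had 173, 174 and 133 (0.36 ± 0.28, SE), HSP90.1-TDNA had 90.03, 114 and 201 (0.08 ± 0.28, SE) and HSP90.2-TDNA had 129.7, 73.7 and 135 (-0.12 ± 0.28, SE). In all 3 T-DNA lines the range of *HAI2* overlapped with Col-0. The spread within HSP90.1-TDNA came from sample 3, which was also the highest of its line for *HAI1* (383) and *ABI1* (1697).

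*ABI1* was the brightest of the 3 probe sets in every line and differed the least from controls in the HSP90-RNAi lines and *hsp90.2-3*. Signals of different probe sets are not a measure of which transcript is more abundant. The signals were 942 and 1344 in Control-2, 1782 and 1690.2 in RNAi-A1, and 1729 and 2356 in RNAi-A3. These are 1.53-fold (0.62 ± 0.20, SE) and 1.78-fold (0.83 ± 0.20, SE) the control mean, again without overlap. In Control-1 and Control-3 the signals were close together, from 1242 to 1457, with a mean of 1353 ± 80.0 (SD, n = 6). RNAi-A2 had 2488 and 2216, or 1.73-fold (0.79 ± 0.16, SE), and RNAi-B1 had 1883, 2139 and 2283, or 1.54-fold (0.63 ± 0.14, SE). RNAi-C1, at 1646, 1500.4 and 1718, was 1.196-fold the controls (0.26 ± 0.14, SE), with its lowest sample just above the highest control sample.

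In Col-0 *ABI1* ranged from 944 over 1287 to 1579, a wider spread than in the vector controls. The signals of *hsp90.2-3* were 2178, 2286 and 1698, which is 1.63-fold (0.71 ± 0.16, SE), and all were above Col-0. The T-DNA lines all overlapped with Col-0. Their differences were 0.30 ± 0.16 in HSP90.3-TDNA, 0.17 ± 0.16 in HSP90.1-TDNA and 0.16 ± 0.16 in HSP90.2-TDNA (SE).

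**Figure D2:**
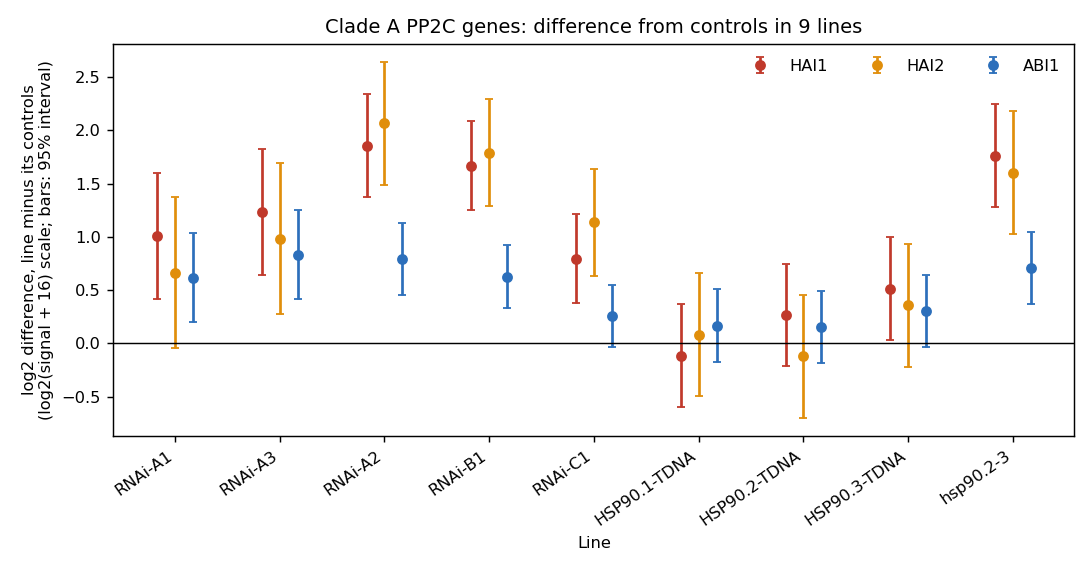
Difference of each line from its controls (y axis, log2(signal + 16) scale) for *HAI1*, *HAI2* and *ABI1* in 9 lines (x axis). Points are estimates and bars 95% intervals of the limma fit, shown as a description. Among the HSP90-RNAi lines the differences run from 0.80 to 1.86 for *HAI1*, from 0.66 to 2.07 for *HAI2* and from 0.26 to 0.83 for *ABI1*.

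Counted by line, all samples of the line lay above all control samples for all 3 genes in each of the 5 HSP90-RNAi lines and in *hsp90.2-3*, for 1 gene in HSP90.3-TDNA and for none in the other 2 T-DNA lines. Over all tested probe sets, the share above in this way was 17.9% in RNAi-A1, 15.4% in RNAi-A3 and 11.1% in RNAi-A2. It was 9.69% in RNAi-C1, 6.43% in RNAi-B1 and 11.7% in *hsp90.2-3*. For the T-DNA lines the share was 6.01% in HSP90.3-TDNA, 4.35% in HSP90.1-TDNA and 3.97% in HSP90.2-TDNA. The median difference of the 3 genes was 1.86 for RNAi-A2, 1.67 for RNAi-B1 and 1.60 for *hsp90.2-3*, against 0.03, 0.01 and -0.03 over all tested probe sets of the same lines. It was 0.80 in RNAi-C1, 0.66 in RNAi-A1 and 0.98 in RNAi-A3, where the medians of all tested probe sets were 0.08, 0.01 and -0.01. In the T-DNA lines it was 0.08 for *HSP90.1*, 0.16 for *HSP90.2* and 0.36 for *HSP90.3*. Among the 16744 tested probe sets ranked by their increase, *HAI2* stood at 8 and *HAI1* at 14 in RNAi-A2, where *ABI1* stood at 254. In *hsp90.2-3* the ranks were 66 for *HAI1*, 93 for *HAI2* and 724 for *ABI1*. For *HAI1*, *HAI2* and *ABI1* in this order, they were 38, 144 and 173 in RNAi-A1 and 25, 55 and 101 in RNAi-A3. They were 35, 25 and 347 in RNAi-B1 and 286, 53 and 3983 in RNAi-C1.

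The 3 genes did not move by the same amount. *HAI1* exceeded *ABI1* by 1.07 ± 0.24 for RNAi-A2, 1.04 ± 0.21 for RNAi-B1 and 1.05 ± 0.24 for *hsp90.2-3* (difference of the log2 differences, SE). For *HAI2* over *ABI1* the values were 1.27 ± 0.25, 1.16 ± 0.22 and 0.90 ± 0.25 in the same lines. In the Control-2 set the gap was smaller, with 0.39 ± 0.29 and 0.40 ± 0.29 for *HAI1* over *ABI1* in RNAi-A1 and RNAi-A3 and 0.05 ± 0.31 and 0.15 ± 0.31 for *HAI2* over *ABI1*. Between *HAI1* and *HAI2* the gap ranged from -0.34 in RNAi-C1 to 0.39 in HSP90.2-TDNA, with an SE of 0.26 and 0.30.

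Lines of one control set also differed among themselves. RNAi-A2 was above RNAi-C1 for all 3 genes without overlap, by 1.06 ± 0.26 for *HAI1*, 0.93 ± 0.31 for *HAI2* and 0.53 ± 0.18 for *ABI1*. RNAi-B1 was above RNAi-C1 in the same way, by 0.87 ± 0.23, 0.65 ± 0.28 and 0.37 ± 0.16. RNAi-A2 and RNAi-B1, which hold different constructs, differed by 0.19 ± 0.26, 0.28 ± 0.31 and 0.16 ± 0.18, which is less than the SE in each gene, although their *HAI1* samples did not overlap. The point mutant stood above the insertion line of the same gene, with *hsp90.2-3* exceeding HSP90.2-TDNA by 1.49 ± 0.23 for *HAI1*, 1.72 ± 0.28 for *HAI2* and 0.55 ± 0.16 for *ABI1*, and no sample overlapped. The share of all tested probe sets without overlap in these pairs of lines is not given here. As the 3 genes were chosen by differences of these lines from controls, the lack of overlap is a description only.

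Ordered by mean log2 level over the 13 lines, neighbouring lines had overlapping samples in 11 of 12 steps for *HAI1*, in 11 of 12 for *HAI2* and in 12 of 12 for *ABI1*. For *HAI1* the one clear step, of 0.85, separated RNAi-A3, *hsp90.2-3*, RNAi-A2, RNAi-A1 and RNAi-B1 (lowest mean 879 ± 33.3, SD, n = 3) from Control-2 (490.3 ± 131, SD, n = 2) and the rest. RNAi-C1 (474 ± 37.2, SD, n = 3) stood below Control-2 in this order although above its own controls. For *HAI2* the clear step, of 0.66, came between RNAi-A1 (341 ± 6.52, SD, n = 2), the lowest of the RNAi lines, and Control-2 (220.3 ± 101, SD, n = 2). For *ABI1* the order ran without a clear step from RNAi-A2 (2352 ± 193, SD, n = 2) down to Control-2 (1143 ± 284, SD, n = 2).

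The contrast of Control-3 with Control-1 was not used to choose the genes and could be tested. By limma with Benjamini-Hochberg adjustment over all tested probe sets, 7 probe sets or 0.0418% differed, and none of the 3 genes was among them. *HAI2* was lower in Control-3, at 108 ± 41.5 against 209 ± 32.8 (SD, n = 3 each). Its log2 difference was -0.92 ± 0.28 (SE), with an unadjusted p of 0.00312 and a limma adjusted p of 0.438. *HAI1* differed by -0.38 (95% interval -0.87 to 0.10, limma adjusted p = 0.834) and *ABI1* by 0.02 (95% interval -0.32 to 0.36, limma adjusted p = 0.992). The 2 vector controls thus lay almost as far apart for *HAI2* as RNAi-C1 lay from their mean.

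Whether the 3 genes also vary together among samples of one line was tested on the deviations of the 35 samples from their line means, which the choice of the genes did not use. *HAI2* and *ABI1* had a Pearson r of 0.51 (permutation p within lines 0.0196, adjusted over 3 pairs 0.0589) and a Spearman rho of 0.49 (permutation p = 0.0307, adjusted 0.0921). *HAI1* and *HAI2* had r = 0.39 (permutation p = 0.153, adjusted 0.153) and rho = 0.43 (permutation p = 0.0779, adjusted 0.117), and *HAI1* and *ABI1* had r = 0.37 (permutation p = 0.125, adjusted 0.153) and rho = 0.38 (permutation p = 0.128, adjusted 0.128). All 6 coefficients were positive and none passed the adjusted threshold of 0.05 in these two-sided tests. The permutations treated lines as independent and did not tie same-numbered samples of an experiment.

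Without the 2 samples farthest from the median of the first gene, r was 0.58 for *HAI2* and *ABI1* (permutation p = 0.0152), 0.50 for *HAI1* and *HAI2* (permutation p = 0.0213) and 0.42 for *HAI1* and *ABI1* (permutation p = 0.118). Here deviations were still taken from line means that included the 2 samples, so offsets between lines enter r and its p. Where single samples or lines were left out, line means were taken anew, and those r are not comparable with these. Within the 6 samples of the Control-2 set, r was 0.98 for *HAI2* and *ABI1* (exact p = 0.25), 0.89 for *HAI1* and *HAI2* (exact p = 0.5) and 0.92 for *HAI1* and *ABI1* (exact p = 0.5), where 0.25 is the smallest p that this set allows. In the 14 samples with Control-1 and Control-3 it was 0.30, -0.14 and -0.21 (permutation p = 0.432, 0.976 and 0.692), with rho at 0.23, 0.09 and 0.03. In the 12 samples with Col-0 and the T-DNA lines it was 0.35, 0.53 and 0.24 (permutation p = 0.296, 0.201 and 0.598), with rho at 0.42, 0.41 and 0.24. The sign of the Pearson relation of *HAI1* with the other 2 genes thus did not hold in each set. Leaving out Control-3 sample 2, where *HAI1* was low (139), moved the r of *HAI1* and *HAI2* from 0.39 to 0.61 (adjusted permutation p = 0.0189). As a background, 0.412% of the other tested probe sets followed *HAI2* within lines at least as closely as *ABI1* did, and 1.74% followed *ABI1* at least as closely as *HAI2* did. For *HAI1* and *HAI2* the same shares were 3.5% seen from *HAI1* and 2.53% seen from *HAI2*, and for *HAI1* and *ABI1* they were 4.47% seen from *HAI1* and 6.22% seen from *ABI1*.

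**Figure D3:**
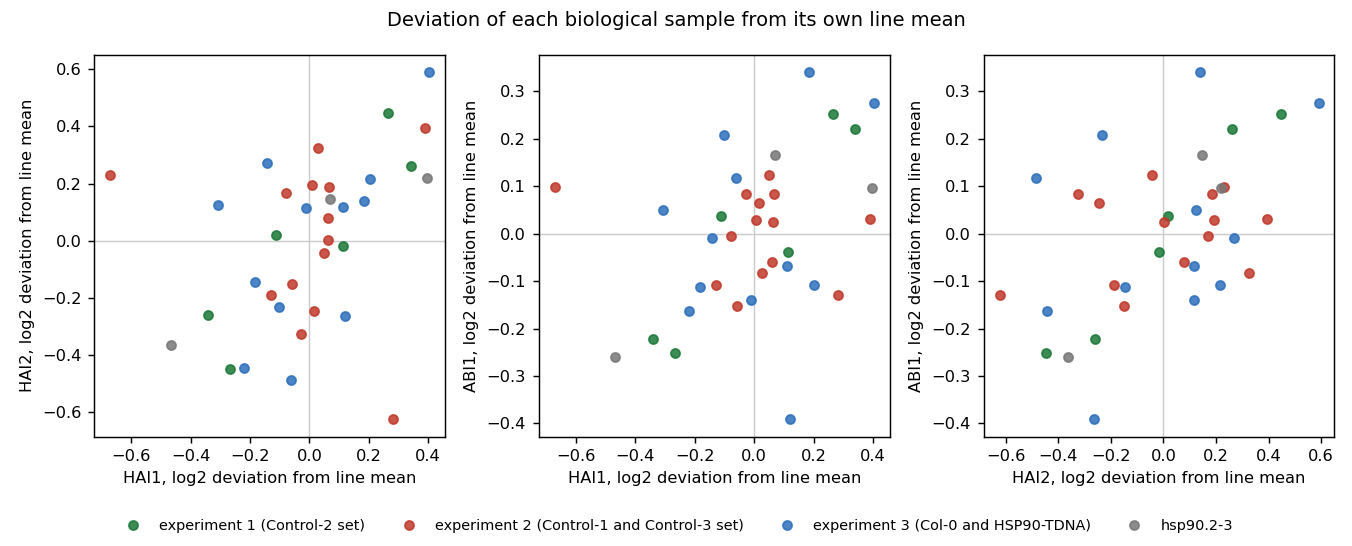
Deviation of each biological sample from its own line mean (log2(signal + 16) scale) for each pair of the 3 genes, coloured by experiment. Each point is 1 of the 35 samples. Over all samples r is 0.39 for *HAI1* and *HAI2*, 0.37 for *HAI1* and *ABI1* and 0.51 for *HAI2* and *ABI1*, and the samples of experiment 2 show no common slope for *HAI1*.

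Of the rest of the pathway, no receptor, SnRK2 kinase, ABA transcription factor or gene of ABA synthesis or breakdown could be named, and these are not analysed here. Of 22 listed genes induced by ABA or drought, 4 were measured and tested. These were *COR47* and *LTI30*, which encode dehydrins, *COR15A*, which encodes a chloroplast protein that protects membranes in freezing, and *LEA4-5*, a late embryogenesis abundant protein gene. By limma with Benjamini-Hochberg adjustment, 3 of the 4 rose in *hsp90.2-3*, where 8.76% of all probe sets were called, and none passed in the other 8 lines. *LEA4-5*, 1 of these 3, passed the filter on low values only through HSP90-reduced lines. Its mean signal was below the threshold of 91.1 in every control line (69.2 in Col-0). Its test for a rise is thus not independent of the filter.

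In *hsp90.2-3* the *COR47* signals were 9197, 7024 and 8353, against 3673, 3911 and 5180.4 in Col-0, a rise of 1.93-fold (0.95 ± 0.14, SE, limma adjusted p = 0.000205). *LEA4-5* rose 3.97-fold, from 24.4, 100.3 and 82.8 to 321, 299.9 and 257 (1.99 ± 0.51, SE, limma adjusted p = 0.0144). *LTI30* rose 2.51-fold, from 585, 617 and 1094 to 2697, 1341 and 1799.8 (1.33 ± 0.42, SE, limma adjusted p = 0.0472), with no overlap for any of the 3 genes. All *hsp90.2-3* samples were above all Col-0 samples for 11.7% of tested probe sets. *COR15A*, at 4647, 3341 and 1995, overlapped with Col-0 (2159, 2001 and 3876; 0.29 ± 0.38, SE, limma adjusted p = 0.731). The *LTI30* call was lost at an offset of 4 (limma adjusted p = 0.0506), without the filter on low values (0.0707), with the failed array kept (0.0767), with only the lines compared (0.085), against all 4 control lines (0.157) and without Col-0 sample 1 (0.147) or 2 (0.154) or *hsp90.2-3* sample 1 (0.195) or 3 (0.102). The *LEA4-5* call was lost without Col-0 sample 1 (limma adjusted p = 0.0913) or *hsp90.2-3* sample 1 (0.0545), and by the methods' test with Benjamini-Hochberg adjustment 0 of the 4 genes passed in *hsp90.2-3*.

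Among the RNAi lines *LEA4-5* had the largest differences of these 4 genes. Its signals were 207 and 112 in RNAi-A2. They were 159, 88.4 and 142 for RNAi-B1 and 90.4, 84.4 and 104 for RNAi-C1, so that all 8 samples were above the 6 control samples (9.09 to 66.7). The differences were 1.79 ± 0.51, 1.53 ± 0.44 and 1.14 ± 0.44 (SE), with limma adjusted p of 0.0876, 0.0948 and 0.101, so none passed. The share of all tested probe sets called, against which these counts stand, was 8.2% in RNAi-C1, 1.01% in RNAi-B1, 0.92% in RNAi-A2, 0.0119% in RNAi-A3 and 0.00597% in RNAi-A1. In the T-DNA lines it was 0.0239% for *HSP90.1*, 0.00597% for *HSP90.2* and 0.0896% for *HSP90.3*. At an unadjusted limma p under 0.05, 2 of the 4 genes passed in each of RNAi-A2, RNAi-B1 and HSP90.3-TDNA, 1 in each of RNAi-C1 and HSP90.1-TDNA and 0 in RNAi-A1, RNAi-A3 and HSP90.2-TDNA. The median difference of the 4 genes was 1.14 in *hsp90.2-3*, 0.18 in RNAi-C1 and between 0.45 and 0.54 in the other 4 RNAi lines. In the T-DNA lines it was 0.22 for *HSP90.1*, 0.37 for *HSP90.2* and 0.42 for *HSP90.3*.

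**Figure D4:**
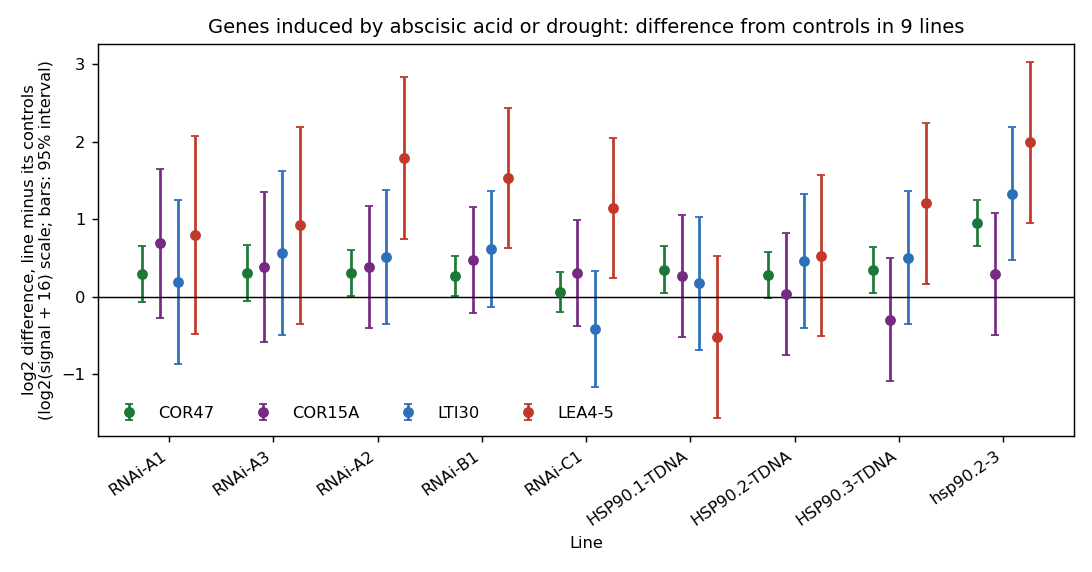
Difference of each line from its controls (y axis, log2(signal + 16) scale) for the 4 measured genes induced by ABA or drought, in 9 lines (x axis). Points are estimates and bars 95% intervals of the limma fit. *LEA4-5* lies at 1.14 to 1.79 in RNAi-A2, RNAi-B1 and RNAi-C1 and at 1.99 in *hsp90.2-3*, with intervals far wider than those of *COR47*.

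Guard cells are a main site of ABA action in the shoot, and 4 of 7 listed genes of the stomatal lineage could be named (*GC1*, *FAMA*, *SPCH* and *MUTE*, of which *MUTE* did not pass the filter). Of the 3 tested, 2 fell in RNAi-C1, where 8.2% of all probe sets were called, and none passed in another line. *GC1* was 3563, 3230 and 2954 in RNAi-C1 against 4983 to 7692 in Control-1 and Control-3 (-0.84 ± 0.13, SE, limma adjusted p = 0.000276), and *FAMA*, a master regulator of guard cell formation, was 235, 181 and 151 against 199 to 299.5 (-0.44 ± 0.13, SE, limma adjusted p = 0.0397). The *FAMA* call was lost with 6 of 9 samples left out in turn, with the failed array kept (limma adjusted p = 0.173), without the filter (0.0546), with only the lines compared (0.0935), against Control-1 alone (0.24) and by the methods' test (adjusted p = 0.316). The *GC1* call was lost against all 4 control lines (limma adjusted p = 0.233). The summed signal of the 4 genes was 3140.3 to 3882 in RNAi-C1, 5241 to 8008 in its controls, 5417 to 5477 in RNAi-B1 and 5759 to 5956 in RNAi-A2. This sum mostly follows *GC1*, with a mean of 3249 in RNAi-C1, against 189 for *FAMA*, 34.7 for *SPCH* and 14.7 for *MUTE*. In *hsp90.2-3* the sum was 2862 to 3582 against 3348 to 4278 in Col-0, with overlap. The part of these differences in the values of the phosphatase genes was not tested. The sum also differed between experiments, at 1959 to 2528 in Control-2, so it was compared only within a set.

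Outside clade A, 12 genes carry PP2C in a symbol or synonym of the gene table used here, and 1 of these, *PIA1*, had a probe set assigned to it alone. Its differences were small where those of the 3 genes were large, with 0.13 ± 0.12 in *hsp90.2-3*, 0.12 ± 0.10 in RNAi-B1 and 0.00 ± 0.12 in RNAi-A2 (SE). In RNAi-C1 it fell by 0.40 ± 0.10 (SE, limma adjusted p = 0.0173), from a control mean of 1381 to 1037.

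Likeness of pattern was measured as the Pearson r over the 35 samples of log2 values minus the mean of the controls of each line. As samples of 1 line share a line mean and lines share controls, r is a description and carries no p. The 3 genes were also chosen by such differences from controls, so high values of r and high ranks among them follow in part from that choice. By this measure *HAI1* and *HAI2* had r = 0.89, *HAI1* and *ABI1* 0.83 and *HAI2* and *ABI1* 0.77. Among the 16743 other tested probe sets, *HAI1* was the most alike to *HAI2* (rank 1), *HAI2* stood at rank 3 for *HAI1*, and *ABI1* stood at rank 15 for *HAI1* and rank 20 for *HAI2*.

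The 5 named genes most like each of the 3 members made up 10 genes in all. For *HAI1* they were AT5G50360 (r = 0.86), AT2G47780 (0.85), AT5G15190 (0.84), AT2G41190 (0.84) and AT1G64380 (0.84). For *HAI2* they were AT5G50360 (0.87), AT5G15190 (0.83), AT2G41190 (0.82), AT3G11420 (0.78) and AT2G47780 (0.78). For *ABI1* they were *PUB19* (AT1G60190, 0.86), which encodes a U-box ubiquitin ligase, AT2G28400 (0.80), AT5G15190 (0.79), AT1G78070 (0.79) and AT1G21790 (0.79). Probe sets not assigned to a single gene were left out of these lists. Some were more alike, with r up to 0.92 for *HAI1* and for *ABI1*. For *HAI2* no probe set outside the 3 genes was more alike than that of AT5G50360. AT5G15190 was the one gene in all 3 lists. Except for *PUB19*, the files and tables used here give these genes no name.

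These 10 genes were picked for their likeness to the 3, so counts over them are a description. All 10 had every sample above every control sample in RNAi-A2 and in *hsp90.2-3*, where 11.1% and 11.7% of all tested probe sets did. The count was 9 in RNAi-B1 (background 6.43%), 9 in RNAi-A3 (15.4%), 8 in RNAi-A1 (17.9%) and 4 in RNAi-C1 (9.69%). It was 3 in HSP90.3-TDNA (6.01%), 1 in HSP90.1-TDNA (4.35%) and 1 in HSP90.2-TDNA (3.97%). For AT5G50360, the named gene most like *HAI1* and *HAI2*, signals were 309 and 309 for RNAi-A2, 232, 259 and 189 for RNAi-B1 and 68.4, 135 and 88.3 for RNAi-C1, above all 6 controls (10.8 to 42.5), but in RNAi-A1 (9.54 and 12.8) it lay within the range of Control-2 (7.13 and 20.9), unlike the 3 phosphatase genes. *PUB19* had 2468, 1482 and 1284 in *hsp90.2-3*, 5.57-fold the Col-0 level (215, 282 and 391), while *ABI1* had 1.63-fold in the same samples. In RNAi-C1 *PUB19*, at 621, 577 and 571, was 1.39-fold its controls, where *ABI1* was 1.196-fold.

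**Figure D5:**
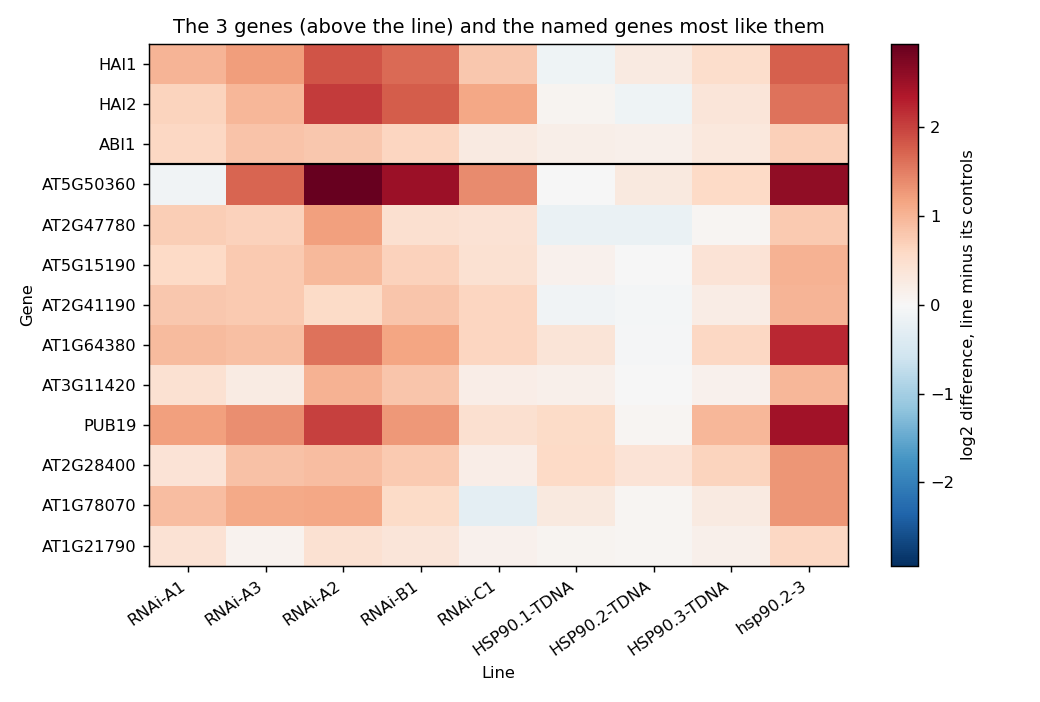
Difference of each line from its controls (colour, log2(signal + 16) scale) for *HAI1*, *HAI2* and *ABI1*, above the black line, and for the 10 named genes most like them, in 9 lines (x axis). Red is higher and blue lower than the controls. The genes below the line were chosen for their likeness to the 3, and in HSP90.2-TDNA their differences run from -0.20 to 0.39.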

How the data were processed

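The deposited table holds intensity values, 1 signal per probe set and array on a linear scale, which the authors made with MAS5 according to the submitters' processing notes (no version given in the sources used here). The Methods name PLIER, but the trimmed mean of each array was 499.7 to 499.9, as MAS5 scaling leaves it. The probe sets of *HAI1*, *HAI2* and *ABI1* were identified by the rule that chose them, because they are among the 8730 to which the platform table gives no gene (13513 have 1 gene and 503 several).

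In R 4.3.3 with limma 3.58.1, log2(signal + 16) was taken, technical replicates were averaged and 1 mean per line was fitted over all 35 samples (22 residual degrees of freedom, prior 3.24), with Benjamini-Hochberg adjustment and a threshold of 0.05. A probe set entered the test when its mean in some line exceeded a signal of 91.1, the 35th percentile. The fit and the permutation test were tested on simulated data. Co-variation was tested with 100000 permutations of samples within lines, or exactly in the set of 6 samples. The 3 genes and all gene lists were chosen with earlier results of these data known. Named genes are the 3 members, the measured genes of the lists, called or brightest, and the 5 named genes most like each member. Precision is limited by 2 or 3 samples per line. Alternatives were quantile normalization, offsets of 4 and 64, the failed array kept, other filters, other control lines, only the lines compared, the methods' test, a replicate block and each sample or line left out.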

Additional observations from a re-analysis of the deposited data

Results flagged for a closer look

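*HAI1* in Control-3 sample 2 had a signal of 138.6, while the other 5 samples of Control-1 and Control-3 lay between 283 and 319. The gap to the nearest sample was 0.80 of the whole range, above Dixon's critical value for 6 samples, which chance passes in about 1 in 20 groups. The same check was run on *HAI2*, *ABI1*, the measured genes induced by ABA or drought and the named genes most like the members. It flagged no other gene, and with that many checks 1 flag can arise by chance. In Control-3 sample 2, *HAI2* (123) and *ABI1* (1457) lay within or just above the range of the other 5. Without this sample the difference of *HAI1* from controls was 0.63 in RNAi-C1, 1.501 in RNAi-B1 and 1.69 in RNAi-A2.

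Further, each of the 4 measured genes induced by ABA or drought was tested between every pair of lines that share controls. Of all these differences, 3 passed limma's test of the difference itself, all between lines that share Col-0. The share of all tested probe sets called in these pairs is not given here, while against Col-0 it was 8.76% for *hsp90.2-3*. *COR47* was higher in *hsp90.2-3* than in HSP90.1-TDNA by 0.60 (limma adjusted p = 0.0123) and than in HSP90.2-TDNA by 0.67 (limma adjusted p = 0.00981), and against HSP90.3-TDNA the difference was 0.61 (limma adjusted p = 0.0580). *LEA4-5* was higher in *hsp90.2-3* than in HSP90.1-TDNA by 2.51 (limma adjusted p = 0.00383). The experiment of *hsp90.2-3* is not given, so batch and line cannot be told apart in these differences.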

How the results depend on the processing

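The differences of the 3 genes from controls moved by less than the spread between samples of a line in 166 of 177 values under other settings and in 162 of 174 with a sample left out, and no value larger than that spread changed its sign. With the failed array kept, *HAI2* in RNAi-A3 was 0.36. *HAI2* was 1.61, 1.33 and 0.68 in RNAi-A2, RNAi-B1 and RNAi-C1 against Control-1 alone and 2.52, 2.25 and 1.59 against Control-3 alone. Against all 4 control lines, *HAI1* was 1.57 in RNAi-A1 and 1.80 in RNAi-A3, and *HAI2* was 1.08 and 1.40. With single samples left out, the ranges in RNAi-A1 were 0.21 to 1.11 for *HAI2* and 0.37 to 0.87 for *ABI1*, and in RNAi-A3 0.89 to 1.57 for *HAI1*, 0.54 to 1.43 for *HAI2* and 0.58 to 1.09 for *ABI1*. The lowest and highest values for *HAI2* and *ABI1* came without Control-2 sample 1 and without Control-2 sample 2, and those for *HAI1* without RNAi-A3 sample 2 and sample 1. Under the replicate block, RNAi-A2 was at 1.92 for *HAI1*, 2.102 for *HAI2* and 0.83 for *ABI1*, and no call changed. The block was an alternative only, since correlations of the deviations of same-numbered samples were -0.16 to 0.05 in experiment 1, -0.08 to 0.21 in experiment 2 and 0.00 to 0.35 in experiment 3. In experiments 1, 2 and 3, 0 of 6, 10 of 26 and 11 of 18 pairs were over 0.1. An effect shared by same-numbered samples was not tested. No block could be fitted for *hsp90.2-3*, which has no set of its own.

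Of the 4 genes induced by ABA or drought, the number called against all 4 control lines was 1 in each of RNAi-A1, RNAi-A2, RNAi-A3 and RNAi-B1 and 2 in HSP90.3-TDNA. With only the lines compared it was 3 in RNAi-B1 and 2 in each of RNAi-C1 and RNAi-A2. With the methods' t-test and Benjamini-Hochberg adjustment it was 1 in RNAi-A2, RNAi-B1 and RNAi-C1 and 0 in *hsp90.2-3*, and at the threshold of the Methods, unadjusted with a minimum fold, it was 2 in RNAi-B1, 1 in RNAi-C1, 3 in *hsp90.2-3* and 0 in the other lines. With single samples left out, the count in *hsp90.2-3* was 1 to 3, with 1 without Col-0 sample 1 and without *hsp90.2-3* sample 1. These counts are given without the direction of each call or the share of all tested probe sets called under each setting. They cannot be read as counts of genes that rose. In RNAi-C1 the *LTI30* signals of 1022 to 1062 lay below all 6 control samples (1363 to 1435), a log2 difference of -0.42 ± 0.36 (SE). The share of all tested probe sets that lay below in this way is not given here. The other differences in RNAi-C1 were 0.05 for *COR47*, 0.30 for *COR15A* and 1.14 for *LEA4-5*. The settings that ended the calls of *LTI30*, *LEA4-5*, *FAMA* and *GC1* are given with those genes. The cause was not tested.

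Between the control lines, *ABI1* in Control-3 minus Control-1 ranged from -0.029 to 0.085 with samples left out, and no call changed. With samples or lines left out, r ranged from 0.29 to 0.65 for *HAI1* and *HAI2*, where 3 of 48 values passed, and from 0.43 to 0.61 for *HAI2* and *ABI1*, where 12 of 48 passed. The latter pair was at 0.57 without RNAi-A2, 0.54 without Control-1, 0.61 without HSP90.2-TDNA and 0.59 without HSP90.3-TDNA. A sample left alone in its line was dropped, so leaving out 1 of 2 samples gave the same result as leaving out the line. The 48 values are thus not all distinct, and the value without RNAi-A2 is repeated among the 12. For *HAI1* and *HAI2* the 3 were those without Control-3 (0.65) or its sample 1 (0.58) or 2 (0.61). Signals near the background, such as those of *LEA4-5* and AT5G50360 in controls, limit the size of a difference on this scale.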
